A study of Homo sapiens with 8 samples.

Results

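Replication-dependent histone genes were taken from the deposited gene tables of a study of the human silencing hub (HUSH) in K-562 cells, an established human leukaemia line. Members were the genes whose symbol was H1- with a number up to 6, or H2AC, H2BC, H3C or H4C with a number, and 4 of the 1221 genes listed in any of the 3 tables matched. They were H3C4, H2BC18, H4C9 and H3C12, and all 4 were listed in 1 comparison only, that of cells expressing FLAG-TASOR2. HUSH silences LINE-1 retrotransposons and a set of genes. Its subunit TASOR has a paralog, TASOR2.

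Total RNA depleted of ribosomal RNA was sequenced from 8 libraries in 4 groups of 2. The groups were wild-type parental cells that received a negative sgRNA, TASOR KO cells, TASOR KO cells that express a FLAG-TASOR transgene, and wild-type parental cells that express a FLAG-TASOR2 transgene. Per the labels' protocols, knockouts were made by CRISPR/Cas9 and grown up from single sorted cells, and transgenes or an empty puromycin resistance vector came in by lentivirus. A negative sgRNA is named in the titles of the controls but not in those of the FLAG-TASOR2 libraries, so an effect of guide treatment and one of the transgene cannot be told apart. Each altered group was compared with the same 2 control libraries, and the sources used here do not say whether the replicates of a group derive from different clones. P-values therefore rest on the spread between libraries, which may be technical.

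Replication-dependent histone genes encode the core histones H2A, H2B, H3 and H4 and the linker histone H1, which package newly made DNA, and they are transcribed mainly in S phase. They lie in clusters, most lack introns, and many encode the same protein through different codons. Their messenger RNAs mostly end in a conserved stem-loop rather than a poly(A) tail, so depletion of ribosomal RNA can retain transcripts that selection for poly(A) would lose.

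The 4 members are shown here by sequences that bear on what their values can say. H3C4 and H3C12 encode histone H3, and the first 90 bases of their coding sequences from GENCODE 29 show how reads from the copies can be told apart; capitals mark the positions where they differ.
H3C4: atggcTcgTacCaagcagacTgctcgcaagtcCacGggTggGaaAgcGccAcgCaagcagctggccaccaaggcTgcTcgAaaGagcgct
H3C12: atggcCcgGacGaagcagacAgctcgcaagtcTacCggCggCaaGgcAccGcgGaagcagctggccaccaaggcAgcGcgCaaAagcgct
The pair differed at 16 of these 90 bases and at 64 of all 411 coding bases. H2BC18 encodes an H2B, and 1 of its transcripts holds the stem-loop of histone messenger RNAs, given with 5 bases on each side and the stem-loop in capitals.
H2BC18 stem-loop: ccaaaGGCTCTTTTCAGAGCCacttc
This stem-loop, the most frequent hairpin of a 6-base stem and 4-base loop among the histone transcripts, was searched on the transcript strand. Its 16 letters, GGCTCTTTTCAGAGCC, occurred in protein-coding transcripts of 18 of 19684 genes (0.0914%), and 17 of these 18 were among the 69 annotated histone genes of the pattern. The GENCODE 29 models of H3C4 and the coding model of H3C12 are 411 bases long, the length of the coding sequence. They therefore do not extend to a stem-loop. The 1294-base model of H4C9, with 312 coding bases, and a 999-base coding transcript of H2BC18 held no match either. Only these exact letters were searched, and other forms of the stem-loop were not.

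The 250 bases before the RefSeq start (GRCh38.p14) are given for H2BC18, whose RefSeq and GENCODE 29 starts lie 3 bases apart, on the minus strand of chr1:149812371-149812620. Capitals mark matches on either strand to the CCAAT box, to TATAAA (a form of the TATA box) or to the octamer motif ATTTGCAT, and no match overlapped another here.
H2BC18 promoter: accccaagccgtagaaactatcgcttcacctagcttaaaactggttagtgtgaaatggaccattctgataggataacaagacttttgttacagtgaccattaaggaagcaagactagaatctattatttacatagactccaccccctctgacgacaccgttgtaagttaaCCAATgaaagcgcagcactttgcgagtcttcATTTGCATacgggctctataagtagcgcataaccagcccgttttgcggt
H2BC18 had 1 CCAAT 80 bases and 1 ATTTGCAT 49 bases before the start, and TATAAA was not found in its window. CCAAT was present in 84.4% of 64 histone promoters of the pattern and in 33.0% of 27305 promoters in the table, TATAAA in 65.6% and 11.1%, and ATTTGCAT in 40.6% and 1.66%. By family, ATTTGCAT was in 14 of 18 H2B and 0 of 13 H4 promoters, and CCAAT in 18 of 18 H2B and 3 of 13 H4 promoters. The RefSeq start of H3C4 lies 2043 bases before its coding start, in a window that also covers the start of H2BC7, and that of H4C9, which encodes histone H4, lies 694 bases inside its GENCODE 29 model, so those windows are not shown. Both are still counted among the 64 histone promoters. Windows of neighbouring genes can overlap, so a match can count for more than 1 gene. H3C12 was not in the promoter table. A match, or the lack of one, describes these exact letters only, and other forms of the TATA box were not searched.

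With FLAG-TASOR2, all 4 members were listed as lower, at 0.413 to 0.476 of the control level, and none had an adjusted p below 0.05 in the authors' deposited table (0 of 4, all 4 at an unadjusted p below 0.05 of the authors' F-test). Over all features tested in that comparison, 0.0357% had one. The deposited tables hold no value per library, so neither the values of single libraries nor their overlap between groups can be given. Fold changes are the authors', on the log2 scale, and each is given with an approximate SE derived from the F score and with the 95% interval that follows from it. Listing itself required a log2 fold change beyond 1 in either direction, a log2 mean expression above 1 and an unadjusted p below 0.05, so a change of that size is a condition of being listed and no finding.

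H3C4 (ENSG00000197409), an intronless H3 gene, had the largest change of the 4 members in the authors' deposited table, at -1.28 on the log2 scale (95% interval -2.21 to -0.35, approximate SE 0.38). This is 2.42-fold lower than in the controls, with an unadjusted p of 0.0153 and an adjusted p of 0.280, both from the authors' deposited table. It lies on chromosome 6 at 26196840 to 26197250 of hg38, minus strand.

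H3C12 (ENSG00000197153), the other H3 gene, had the smallest change but the smallest error, in the authors' deposited table, at -1.07 on the log2 scale (95% interval -1.75 to -0.39, approximate SE 0.28). It was 2.10-fold lower, with an unadjusted p of 0.00858 and an adjusted p of 0.237 in the authors' deposited table. It was the only member with an unadjusted p below 0.01. The gene lies on chromosome 6 at 27890382 to 27893106, minus strand, with 1 exon in its coding transcript and 2 in a second transcript.

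H4C9 (ENSG00000276180), a single-exon H4 gene on chromosome 6 at 27138588 to 27139881, plus strand, was at a log2 value of -1.13 in the authors' deposited table (95% interval -2.26 to -0.01, approximate SE 0.46). It was 2.20-fold lower, with an unadjusted p of 0.0487 and an adjusted p of 0.406 in the authors' deposited table. Only 12 of the 884 listed genes had a larger unadjusted p.

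H2BC18 (ENSG00000203814) is the 1 member outside chromosome 6, on chromosome 1 at 149782689 to 149812373, minus strand, with 1 or 2 exons in its 5 transcripts. The authors' deposited table gave it -1.15 on the log2 scale (95% interval -2.29 to -0.01, approximate SE 0.47), or 2.22-fold lower. The authors' deposited table gave an unadjusted p of 0.0487 and an adjusted p of 0.406, and 10 listed genes had a larger unadjusted p. H2BC18 and H4C9 were thus listed at the edge of the p threshold, and their intervals end just short of 0.

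**Figure D1:**
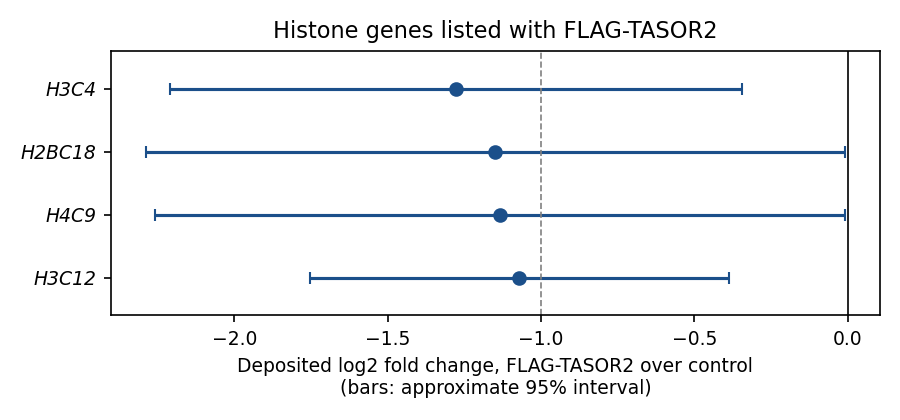
Deposited log2 fold change of FLAG-TASOR2 cells over controls (x axis) for the 4 listed histone genes (y axis); points are the authors' values, bars the approximate 95% intervals, the solid line no change and the dashed line the listing threshold. All 4 points lie between -1.28 and -1.07, and the bars of H2BC18 and H4C9 reach -0.01.

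The 4 fold changes were close to each other. They spanned 0.21 on the log2 scale, less than the smallest approximate SE of 0.28, so the members cannot be ranked by size. From the authors' deposited table, their median log2 fold change was -1.14, against -1.85 for all 526 lower genes. Of those 526 genes, 123 (23.4%) lay between -1 and -1.3, as all 4 members did.

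The count of members was close to the background of the comparison. The annotation holds 69 histone genes of this symbol pattern, 6 H1, 17 H2A, 18 H2B, 13 H3 and 15 H4 genes. Of these, 4 were listed (5.80%), 1 H2B, 2 H3 and 1 H4 gene, and no H1 or H2A gene was (0 past the listing thresholds). Over all features, 6.31% of the 14001 genes tested were listed, 3.76% as lower and 2.56% as higher. How many of the 69 were among the genes tested is not known from the tables, so the shares have different denominators. Of all 884 listed genes, 59.5% were lower. The other 65 histone genes have no value here, so their levels relative to the controls are unknown.

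Members were among the listed genes with the most reads. Their deposited log2 mean expression, in log2 CPM and not per length, was 7.13 for H2BC18, 6.53 for H3C4, 6.46 for H4C9 and 6.33 for H3C12, against a median of 3.05 over all listed genes. Only 40 of the 884 listed genes had a higher value than H2BC18 and 57 a higher value than H3C12. The other 54 listed genes at or above the value of H3C12 were split, 26 higher and 28 lower, with a median absolute log2 fold change of 1.21 from the authors' deposited table and a median approximate SE of 0.27. The approximate SEs of all 4 members, 0.28 to 0.47, were above that median. The sizes of the members' changes lay on both sides of the median of those genes.

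**Figure D2:**
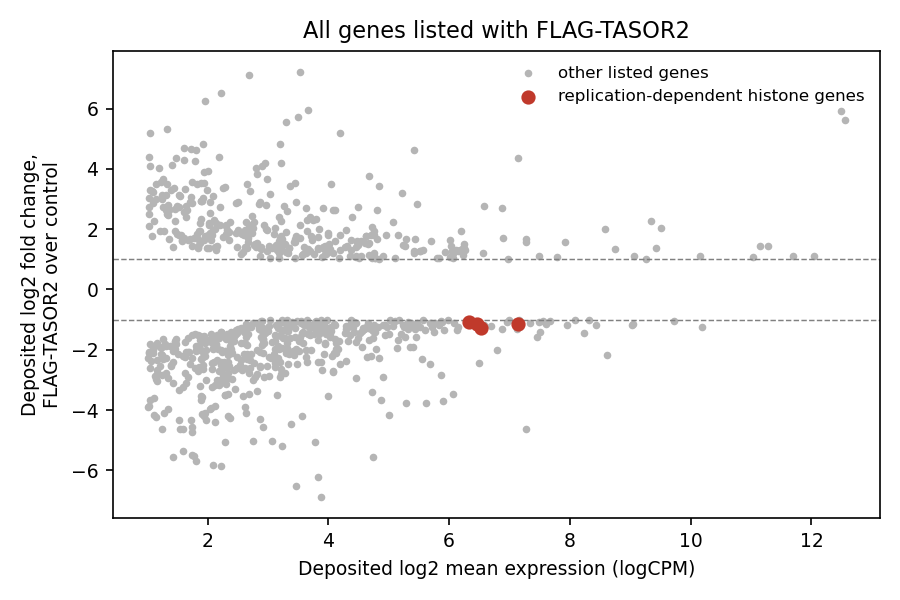
Deposited log2 mean expression (x axis) against deposited log2 fold change of FLAG-TASOR2 cells over controls (y axis) for 870 listed genes, without the 14 listed genes that were taken to have a group at 0; dashed lines mark the listing threshold. The 4 histone genes (red) lie at 6.33 to 7.13 on the x axis, at -1.28 to -1.07 on the y axis, at the edge of the lower genes nearest to no change.

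In the other comparisons no member was listed. The count was 0 of 268 genes for the TASOR knockout, where 1.92% of 13992 genes tested were listed. It was 0 of 261 for the knockout with FLAG-TASOR, where at most 1.87% were. The p-values of unlisted members are not known. For the latter, the number tested is known only to be at least 13957. With no value for the members in those tables, it was not tested whether their change differed between FLAG-TASOR2 and either knockout group. All comparisons share the control libraries. The altered genes themselves were listed in the direction of their labels where they were listed, in the authors' deposited tables. TASOR was at -1.08 (approximate SE 0.23, adjusted p 0.9997) in the knockout. TASOR2 was at 2.26 (0.27, adjusted p 0.125) with FLAG-TASOR2, both by the authors' F-test.

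No listed member had another listed member within 50 kb. The chromosome 6 locus spans 2168 kb and holds 55 annotated histone genes, of which H3C4, H4C9 and H3C12 lie 471, 1412 and 2164 kb from the first. H3C4 has 13 histone genes within 50 kb, H4C9 has 4 and H3C12 has 7, and none of these was listed (0 in each case). H2BC18 is the 1 listed gene among 11 histone genes of a 105 kb locus on chromosome 1, with 7 within 50 kb. Over all features, 6.31% of the 14001 genes tested were listed, and 0 is near that share for so few neighbours. How many of the neighbours were tested is not known, so the lack of listed neighbours is no result about position. Of the 75 other annotated genes within the chromosome 6 locus, 20 of them protein-coding, BTN3A1, a butyrophilin gene whose product takes part in the recognition of phosphoantigens by T cells, was the 1 listed with FLAG-TASOR2. In the authors' deposited table it was at -3.23 on the log2 scale (adjusted p 0.180, approximate SE 0.61). In the knockout tables no gene of the histone loci was listed (0 in both). Over all features, 1.92% of genes tested were listed for the knockout and at most 1.87% for the knockout with FLAG-TASOR.

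**Figure D3:**
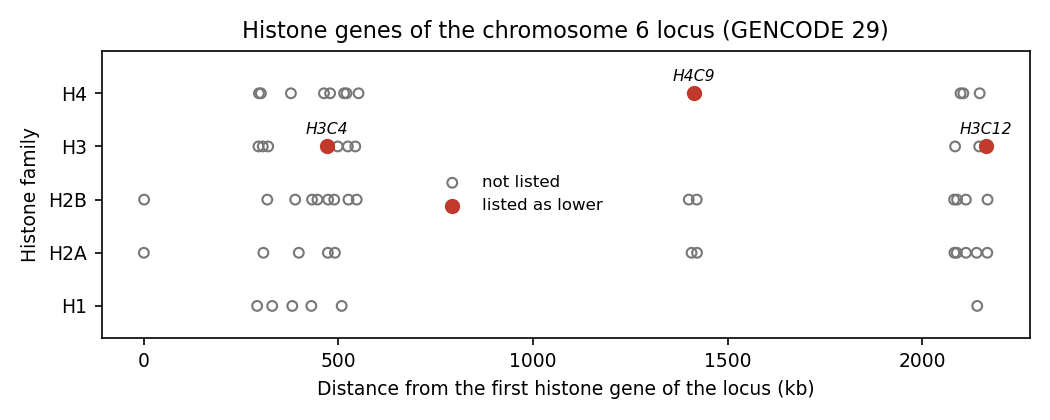
Distance in kb from the first annotated histone gene of the chromosome 6 locus (x axis) for each replication-dependent histone gene, by family (y axis); red circles were listed as lower with FLAG-TASOR2 and open circles were not listed. The 3 listed genes lie in different parts of the locus, at 471, 1412 and 2164 kb.

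Histone genes resemble each other and overlap other gene models, which bears on how their reads can be assigned. In the coding sequence, the member nearest to another gene of its family was H2BC18, with 94.2% identity to H2BC21, while H4C9 had 90.1% identity to H4C11. H3C4 and H3C12 were both nearest to H3C11, at 88.1% and 85.4%.

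Sharing of exact sequence was uneven among the members. For H4C9, 0.562% of its distinct 50-base stretches occurred in transcripts of another gene on either strand, all in H4C2. For H2BC18 the share was 26.9%, spread over 15 genes, the most with HIST2H2BA (12.1% of its stretches). For H3C12 it was 40.9%, all of it shared with H2AC17, an H2A gene whose exons overlap 44.6% of the exon bases of H3C12 on the same strand. For H3C4 it was 100%, since a protein-coding model named AL031777.3 covers all of its 411 exon bases on the same strand. The 65 unlisted histone genes ranged from 0 to 100% with a median of 0.591%, and 29 of them shared none. Neither AL031777.3 nor H2AC17 was listed in any table. The sources used here do not name the annotation or the counting rule, so the values of H3C4, H3C12 and H2BC18 are uncertain. FCGR1A also overlaps 5.54% of the exon bases of H2BC18 on the opposite strand. Reads of that overlap cannot be told apart if strand was not used.

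**Figure D4:**
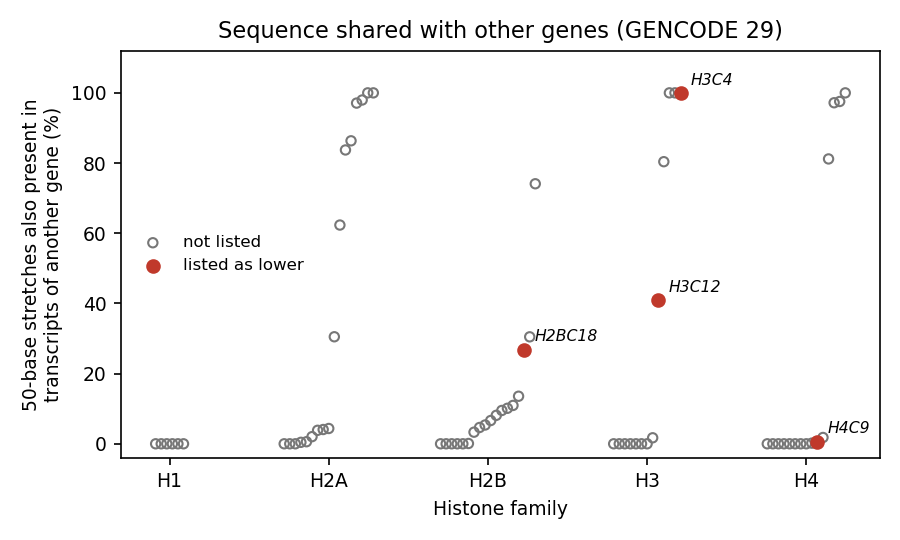
Share of the distinct 50-base stretches of each histone gene that also occurs in transcripts of another gene (y axis, percent), by family (x axis); red circles were listed as lower with FLAG-TASOR2 and open circles were not listed. H4C9 lies at 0.562%, H2BC18 at 26.9%, H3C12 at 40.9% and H3C4 at 100%.

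Genes that act with the histone genes were absent from the FLAG-TASOR2 table. No gene was listed there from 5 lists of gene symbols (0 past the listing thresholds). The lists held 39 symbols of histone messenger RNA transcription and 3' processing such as NPAT and SLBP. There were 42 of S phase and DNA replication such as PCNA and MCM2, and 24 of G2 and mitosis. The others were 25 of histone chaperones and 31 of replication-independent histone genes. Some symbols are other names of the same gene or stand in more than 1 list. The same lists had no listed gene in the knockout tables either (0 in both). Of all genes tested, 6.31% were listed with FLAG-TASOR2, 1.92% in the knockout and at most 1.87% in the knockout with FLAG-TASOR. How many genes of each list were tested is not known. Of 16 genes of cell cycle arrest, BTG2, an antiproliferative gene, was listed as higher in the knockout with FLAG-TASOR, where the authors' deposited table gave it 1.31 on the log2 scale (adjusted p 0.999, approximate SE 0.50). An unlisted gene of these lists can have changed by less than the listing threshold, can have been too low in reads or can have had an unadjusted p of 0.05 or more.

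Other RNA classes were also listed with FLAG-TASOR2. Of the 14001 genes tested there, 6.31% were listed, 2.56% as higher and 3.76% as lower. How many genes of each class below were tested is not known. Protein-coding genes with a single exon outside the mitochondrial genome, a class that holds H3C4 and H4C9, were split, 7 higher and 8 lower of 15 listed. No small nucleolar or Cajal body RNA was listed (0 past the listing thresholds). The mitochondrial genome had 11 listed genes, all higher, at log2 fold changes of 1.09 to 5.90 and with a log2 mean expression of up to 12.55 in the authors' deposited table. The largest were those of the ribosomal RNAs, from the authors' deposited table. MT-RNR1 was at 5.90 (approximate SE 2.18, adjusted p 0.366) and MT-RNR2 at 5.60 (1.98, adjusted p 0.349), by the authors' F-test. All 13 listed small nuclear RNA genes were higher, between 1.20 and 1.47. Of 20 erythroid genes, which K-562 cells are known to express in part, 6 were listed as higher and 0 as lower, among them the alpha-globin gene HBA2 at 2.04 (approximate SE 0.30) and SLC4A1, the red cell anion exchanger, at 2.62 (0.31), in the authors' deposited table. The part of these RNA classes in the lower values of the histone genes was not tested. No member had an adjusted p below 0.05 of the authors' F-test, so a lower level of histone RNA is itself not established. Even if it were, fewer cells in S phase and less histone RNA per cell could not be told apart in these bulk libraries.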

How the data were processed

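RNA was measured in 8 K-562 libraries in 4 groups of 2. The authors' build was hg38 and their tools included STAR 2.7.8, DESeq2, edgeR and Salmon, per the submitters' processing notes, which are known here without a role for each. Per the file headers, the authors deposited 3 tables that give, per gene, the F score, p-value and adjusted p-value of a test, the log2 fold change and the logCPM (log2 mean expression). The headers of the authors' deposited tables match edgeR's F-test output, but no source used here states the tool. The deposited tables hold no count or value per library. No model could be refitted, and library depth is unknown. All listed genes had a logCPM above 1, a log2 fold change beyond 1 in either direction and p below 0.05, as checked on the files. "Rose" and "fell" are kept for genes with an adjusted p below 0.05, and no member reached it.

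The size of the log2 fold change over the root of F gave the approximate SE. The 95% intervals used the 6.01 degrees of freedom that F and p imply for the FLAG-TASOR2 table. A simulation drawn from these same formulas checked the arithmetic only. Whether the SE and interval hold for the authors' F-test, or for genes kept by the listing thresholds, was not tested. A gene with 1 degree of freedom fewer was taken to have a group at 0. The number of genes tested came from the top gene (its adjusted p over its unadjusted p) or else from the highest deposited row number, a lower limit. Members were matched by symbol and by Ensembl identifier, with the same 4 found. Positions and transcripts came from GENCODE 29 on GRCh38, the assembly of hg38, where all 69 histone genes were found; promoters came from RefSeq (GRCh38.p14), where 64 were found. Python 3.11.15 with pandas 2.3.3 and SciPy 1.17.1 was used. The members and lists were chosen with earlier results of these data known. The rule for named genes took every listed member, listed genes of the fixed lists, and up to 6 listed non-histone genes of the histone loci by smallest p. Gene lists other than the members were described by counts and by the values of some of their listed genes, without a test of any list. Transposable elements were not analysed here.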

Additional observations from a re-analysis of the deposited data

How the results depend on the processing

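With FLAG-TASOR2, the count of listed members depended on the thresholds. It was 4 as deposited, 0 with an absolute log2 fold change above 1.5, 1 with an unadjusted p below 0.01 (H3C12) and 0 with an adjusted p below 0.05. It was 2 without H3C4 and H3C12, whose exons overlap those of another gene on the same strand, an alternative chosen after seeing the data. It stayed at 4 when members had to reach the table's median expression, with pseudogenes and replication-independent histone genes added, and without genes with a group at 0. The median log2 fold change of -1.14 was -1.07 with p below 0.01 and the mean was -1.16; its sign could not change, since all 4 members were lower and no alternative brought in another listed gene. In both knockout comparisons the count was 0 as deposited, so no median could be given. Alternatives that only remove genes could not change this count. Adding pseudogenes and replication-independent histone genes also gave 0. No paired analysis was possible because the tables hold no value per library, and for the same reason no library could be left out. The tables hold only genes past the listing thresholds, so smaller changes could not be examined. Library depths are unknown.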
